A study of Mus musculus with 4 samples.

Results

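Melanoma cells can release proteins that act on the blood vessels around them, and 10 genes for such secreted angiogenic factors were followed between a Met-low and a Met-high population of melanoma cells: *Pdgfa*, *Pdgfb*, *Angpt1*, *Angpt2*, *Vegfa*, *Vegfb*, *Vegfc*, *Fgf2*, *Thbs1* and *Tgfa*. They were chosen by symbol, with earlier results of these data known. Every non-control probe whose accession led to one of these symbols in the mouse RefSeq gene table was taken, whatever its signal. This gave 13 of 39429 probes and 31 of 43020 spots, for 10 of the 20832 genes that could be named. The cells were B16-F10, a pigmented mouse melanoma line, grown in medium with serum. A cell sorter divided them by the amount of the receptor Met on the cell surface, Met-low and Met-high cells were each grown for 3 days after the sort, and total RNA was labeled with Cy3 and hybridized to Agilent mouse arrays, with 2 samples per population that had been prepared independently. Both populations came from the same line and carried no transgene or drug treatment. The arrays measured RNA in cultured tumor cells, not secreted protein and not vessels.

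The members belong to several ligand families that act on vessel walls. The vascular endothelial growth factors bind receptor tyrosine kinases on blood and lymphatic endothelium and drive sprouting and permeability, while the platelet-derived growth factors recruit pericytes and fibroblasts, and the angiopoietins set the stability of the endothelium through the receptor Tie2. FGF2 and TGFα are growth factors for endothelial and many other cells, and thrombospondin 1 is a matrix protein best known as an inhibitor of angiogenesis.

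All 4 arrays lay on 1 slide from 1 scan, and the populations took different positions on it, so that an effect of position cannot be told apart from one of population. Per array, the intensity had a 75th percentile between 858 and 1331, and at most 53.6% of the spots were well above background. A signal is given below as log2 of the background-corrected intensity relative to this percentile, and a ratio as the Met-high mean minus the Met-low mean on that scale. A gene was represented by its brightest probe and was compared if both arrays of at least one population detected it, which left 11948 genes, and it was called at an adjusted p under 0.05 from limma. Differences between probes in brightness say nothing about which RNA was more abundant. *Met* itself overlapped between the populations, with a signal of -0.43 on Met-high replicate 2 between the Met-low values of -0.26 and -0.89. Its log2 ratio of 0.87 did not pass the threshold (adjusted p = 0.332), but did so at 1.61 if Met-high replicate 2 was left out (adjusted p = 0.0438). It was 0.14 with Met-high replicate 1 removed instead (adjusted p = 0.830). All 7 melanocyte markers (*Dct*, *Tyr*, *Tyrp1*, *Pmel*, *Mlana*, *Mitf* and *Sox10*) were detected, and 0 of the 7 were called by limma (1 at an unadjusted p under 0.05, with a higher mean in Met-high cells). Their summed linear signal was 1691 and 1385 times the 75th percentile in Met-low and 1698 and 1493 times in Met-high samples. RNA from a bulk sample cannot tell fewer expressing cells from less RNA in each cell.

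Of the 10 factors, 8 were expressed in at least one population and 4 of these were called lower in Met-high cells: *Pdgfa*, *Tgfa*, *Angpt2* and *Vegfa*. With detection required on all 4 arrays, which leaves out *Tgfa*, 3 members were called lower, beside 400 of 11224 genes. None of the 8 was called higher, with 1, *Vegfb*, at an unadjusted p under 0.05 from limma and 1 also with Student's t-test. Over all genes compared, 3.81% were called lower and 1.94% higher in Met-high cells. At an unadjusted p under 0.05 from limma, 1418 of the 11948 genes were lower and 1711 higher. Since the members were chosen with earlier results of these data known, values over all genes are given as background and not as a test. The log2 ratios of the 8 factors ran from -2.19 to 0.44 with a median of -0.99, beside a median of 0.10 over all genes. The lower end is the calculated ratio of *Tgfa*, which was well above background on neither Met-high array. *Vegfb* and *Vegfc* were the members with a higher mean in Met-high cells. The Met-low and Met-high arrays did not overlap for any of the 8, with the Met-low arrays above for 6 and the Met-high arrays above for 2, but this is a weak criterion with 2 arrays against 2, since 22.6% and 35.7% of all genes were separated in these directions. *Angpt1* and *Fgf2* were detected on none of the 4 arrays.

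**Figure D1:**
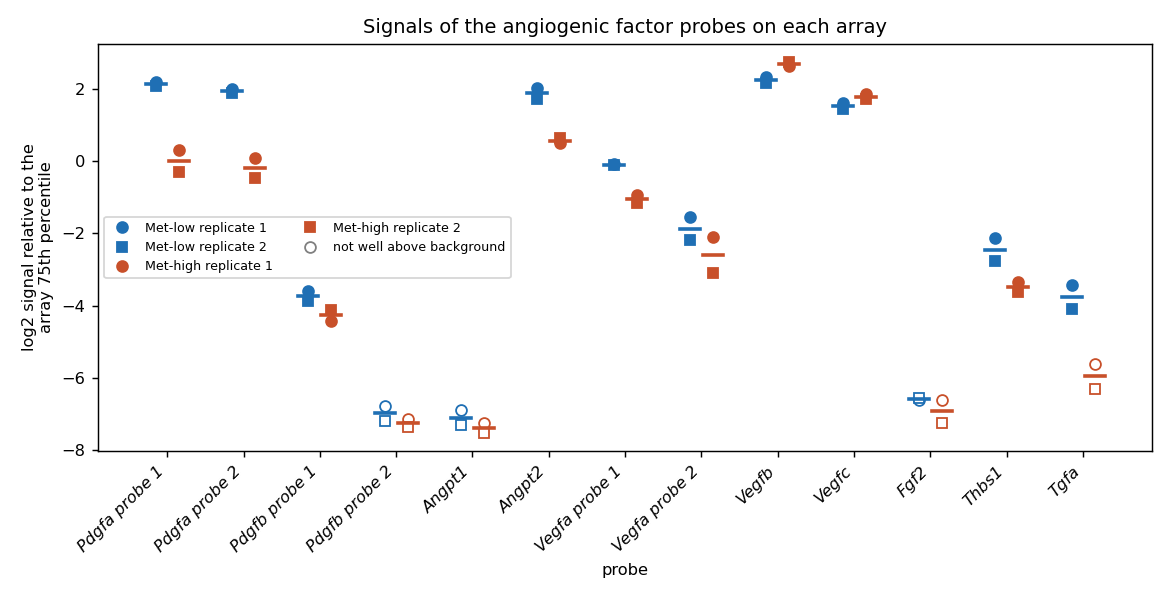
Signal of each of the 13 probes on each array, as log2 intensity over the array's 75th percentile, with circles and squares for replicates 1 and 2, blue for Met-low, orange for Met-high, horizontal lines for the means of 2 arrays, and open symbols where the probe was not well above background. Both *Pdgfa* probes and *Angpt2* sit lower in Met-high cells, *Vegfb* and *Vegfc* sit slightly higher, and the second *Pdgfb* probe, *Angpt1* and *Fgf2* are open on all 4 arrays.

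The genes of the platelet-derived growth factors A and B, whose products pair with themselves or each other to act on PDGF receptors, gave different readings. *Pdgfa* (NM_008808) was bright in Met-low cells, with signals of 2.20 and 2.09, and gave 0.30 and -0.30 in Met-high cells. In intensity these arrays read 4316 and 5678 against 1059 and 899. Every Met-high array was thus far below both Met-low arrays. *Pdgfa* fell by 2.14 on the log2 scale from Met-low to Met-high cells (standard error 0.24, 95% interval -2.76 to -1.53, adjusted p = 0.0146), a 4.42-fold difference that placed it 151st from the lowest ratio among 11948 genes. A second *Pdgfa* probe, which the choice of the brightest probe did not use, gave 1.99 and 1.89 in Met-low and 0.08 and -0.47 in Met-high cells. Its log2 ratio was also -2.14 (95% interval -2.76 to -1.52, adjusted p = 0.0292 among 19776 probes tested one by one). This call was lost without Met-low replicate 1 (adjusted p = 0.0712) or Met-low replicate 2 (adjusted p = 0.0542). The *Pdgfa* probes read the same RNA extracts and are not independent samples. Among all probes tested one by one, 2.06% were called lower and 0.556% higher in Met-high cells.

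*Pdgfb* (NM_011057), whose product is the main pericyte-recruiting factor of endothelium, gave a dim signal of -3.61 and -3.87 in Met-low and -4.41 and -4.13 in Met-high cells. These intensities were only 77.3 and 90.8 against 40.2 and 63.6. The arrays were separated, but *Pdgfb* was not called, with a log2 ratio of -0.53 (unadjusted 95% interval -1.02 to -0.04, adjusted p = 0.166) that became -0.21 with another background correction, normexp. The second *Pdgfb* probe was not well above background on any array, with intensities of 8.60 and 9.12 in Met-low and 6.13 and 6.69 in Met-high cells, and gives no ratio. Whether the ratios of *Pdgfa* and *Pdgfb* differ was not tested.

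The angiopoietins are ligands of Tie2, with Angpt1 known as the stabilizing agonist and Angpt2 as a context-dependent antagonist that loosens vessels for sprouting. *Angpt2* (NM_007426) gave signals of 2.03 and 1.73 in Met-low and 0.49 and 0.65 in Met-high cells. The intensities behind them were 3849 and 4431 against 1207 and 1744. All 4 arrays were far above background and the populations were well separated. *Angpt2* fell by 1.31 on the log2 scale (standard error 0.18, 95% interval -1.77 to -0.85, adjusted p = 0.0236), 2.48-fold, and ranked 419th from the lowest ratio. Without Met-low replicate 1 the adjusted p was 0.0755. *Angpt1* (NM_009640) was not detected, with intensities of 7.88 and 8.42 in Met-low and 5.64 and 6.07 in Met-high cells, which leaves only *Angpt2* of this pair with a measured level in these cells.

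Among the vascular endothelial growth factors, 1 of 3 was called. *Vegfa*, the main driver of sprouting angiogenesis and a gene known to answer to low oxygen, had 2 probes on the array. The brighter one (NM_001025250) gave -0.08 and -0.12 in Met-low and -0.95 and -1.15 in Met-high cells. Its intensities were 888 and 1226 against 445 and 501. By this probe *Vegfa* fell by 0.95 on the log2 scale (standard error 0.16, 95% interval -1.36 to -0.53, adjusted p = 0.0392), 1.93-fold, just inside the threshold. The call was lost with any one of the 4 arrays left out, where the adjusted p lay between 0.0586 and 0.144, although the log2 ratio stayed between -1.05 and -0.85. Tested among all probes one by one, the brighter probe had an adjusted p of 0.0671.

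The other *Vegfa* probe (NM_001025257) carried another transcript accession. It gave -1.54 and -2.19 in Met-low and -2.11 and -3.09 in Met-high cells, so that the populations overlapped. Its log2 ratio was -0.74 (95% interval -1.82 to 0.35, adjusted p = 0.362 among all probes), an interval that holds both no difference and the value of the brighter probe. With the mean of the *Vegfa* probes in place of the brighter one, the log2 ratio was -0.84 and the adjusted p 0.132.

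*Vegfb* and *Vegfc* were expressed in both populations and were not called. *Vegfb* (NM_011697), a ligand of VEGFR1 linked to survival and metabolism more than to sprouting, gave 2.34 and 2.17 in Met-low and 2.64 and 2.73 in Met-high cells. Both Met-high arrays were above both Met-low arrays. The log2 ratio was 0.44 (unadjusted 95% interval 0.02 to 0.85, adjusted p = 0.174), 1.35-fold higher in Met-high cells. *Vegfc* (NM_009506), the chief lymphangiogenic factor and a ligand of VEGFR3, gave 1.60 and 1.45 in Met-low and 1.86 and 1.72 in Met-high cells. Its log2 ratio of 0.26 had an interval of -0.16 to 0.67 (adjusted p = 0.366), which does not reach a 2-fold change in either direction. With the 75th percentile taken over detected probes alone, a scaling under which the median over all genes went from 0.10 to -0.05, these ratios were 0.29 for *Vegfb* and 0.11 for *Vegfc*. Whether the ratio of *Vegfa* differs from those of *Vegfb* and *Vegfc* was not tested.

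**Figure D2:**
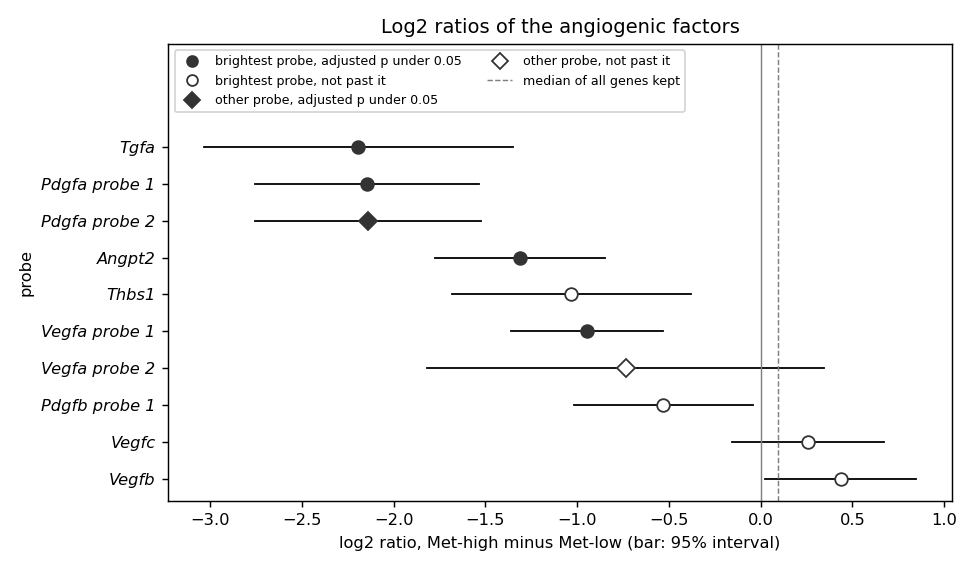
Log2 ratio of each probe that entered the comparison, Met-high minus Met-low, with its 95% interval from limma as a bar, filled symbols for an adjusted p under 0.05 (brightest probes from the fit over genes, other probes from the fit over probes) and a dashed line at the median of all genes, 0.10. The 4 called genes lie between -2.19, the calculated ratio of *Tgfa*, and -0.95, the second *Pdgfa* probe lies on top of the first at -2.14, the interval of the second *Vegfa* probe crosses 0, and *Vegfb* and *Vegfc* lie to the right of the dashed line.

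The start regions of the 3 VEGF genes are shown because *Vegfa* was called lower in Met-high cells, while *Vegfb* and *Vegfc* were not called. Each is the 250 bases before a transcript start, from RefSeq on the mouse build GRCm38.p6, written 5′ to 3′ on the strand of the gene, with capitals marking GC boxes (GGGCGG or its reverse complement CCGCCC, either strand).
Vegfa, GRCm38.p6 chr17:46032378-46032627, minus strand: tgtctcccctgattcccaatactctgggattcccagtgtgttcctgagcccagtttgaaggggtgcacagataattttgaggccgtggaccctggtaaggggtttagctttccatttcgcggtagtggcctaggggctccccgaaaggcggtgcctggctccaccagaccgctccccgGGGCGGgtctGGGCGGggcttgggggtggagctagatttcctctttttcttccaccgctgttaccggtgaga
Vegfb, GRCm38.p6 chr19:6987652-6987901, minus strand: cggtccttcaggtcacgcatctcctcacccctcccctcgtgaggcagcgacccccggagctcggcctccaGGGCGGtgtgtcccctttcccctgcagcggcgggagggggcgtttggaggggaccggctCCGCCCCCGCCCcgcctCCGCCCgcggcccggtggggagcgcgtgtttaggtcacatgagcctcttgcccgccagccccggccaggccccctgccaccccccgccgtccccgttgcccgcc
Vegfc, GRCm38.p6 chr8:54077282-54077531, plus strand: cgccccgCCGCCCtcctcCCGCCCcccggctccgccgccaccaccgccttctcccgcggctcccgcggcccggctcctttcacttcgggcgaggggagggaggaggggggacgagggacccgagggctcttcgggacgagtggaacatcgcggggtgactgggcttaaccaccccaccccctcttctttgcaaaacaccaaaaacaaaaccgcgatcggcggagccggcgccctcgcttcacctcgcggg
*Vegfa* holds 2 GC boxes in this window, *Vegfb* 4 and *Vegfc* 2, and their GC contents are 59.2%, 76.4% and 71.6%. RefSeq held 8 such windows for 6 of the members (*Pdgfa*, *Vegfa*, *Vegfb*, *Vegfc*, *Fgf2* and *Tgfa*), and all 8 had a GC box, beside 32.7% of 32851 mouse promoter windows of the same length. The GC content of the 8 windows ran from 59.2% to 76.4%, beside a median of 52.4% over all windows. GC boxes were thus present in the windows of members that were called, of members that were not and of a member that was not detected. The TATA box letters TATAAA (either strand) were in 0 of the 8 windows and in 12.4% of all windows. The core ACGTG of the hypoxia response element (either strand) was in 1 of the 8 and in 16.6% of all. That window is a second one of *Vegfa* (chr17:46025164-46025413), inside the annotated gene (46016993 to 46032377), and the *Vegfa* window printed above held 0 such cores. The *Pdgfa* windows also lie inside their annotated gene, and the windows of *Fgf2* and *Tgfa* overlap the annotated starts of theirs. These matches describe letters in a short window and are not binding sites measured in these cells.

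*Tgfa* and *Fgf2* were each printed at 10 spots per array, which shows how near they came to background. *Tgfa* (NM_031199), a ligand of the EGF receptor that is made as a membrane precursor and released by proteolysis, gave mean signals of -3.43 and -4.11 in Met-low and -5.61 and -6.31 in Met-high cells. All 10 spots were well above background on both Met-low arrays, with intensities of 63.7 to 120 and of 67.2 to 103. Only 3 of 10 and 1 of 10 spots were so on the Met-high arrays, with intensities of 8.20 to 45.1 and of 6.18 to 33.6. *Tgfa* RNA was therefore measured in Met-low cells, while Met-high cells gave no measured level. The calculated log2 ratio was -2.19 with a standard error of 0.33 (adjusted p = 0.0289 in the comparison of all genes). The Met-low mean was 2.52-fold above a Met-high mean in which each array contributes the signal of the dimmest probe still detected on it, or that of *Tgfa* where this was higher. This fold is not a strict lower limit, since brighter probes can go undetected. The dimmest detected signals were -4.96 and -5.25 on the Met-high arrays. *Ang*, another secreted factor, gave -4.51 and -4.44 there and was detected on 1 of these arrays. The calculated ratio was -0.64 with normexp (adjusted p = 0.152 from limma), a setting whose added offset of 50 shrinks ratios of dim probes by construction. Tested among all probes one by one, *Tgfa* had an adjusted p of 0.0581.

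The same spots give the technical spread. On the Met-low arrays the 10 *Tgfa* spots had standard deviations of 0.26 and 0.21 on the log2 scale, and on the Met-high arrays of 0.90 and 0.82. In unscaled intensity, the brightest *Tgfa* spot on either Met-high array, at 45.1, was below the dimmest Met-low spot, at 63.7. *Fgf2* (NM_008006), a heparin-binding growth factor that leaves cells without a signal peptide, had median spot intensities of 9.08 and 9.93 in Met-low and 6.91 and 7.65 in Met-high cells. Of its spots, 0 of 10 and 1 of 10 were well above background on the Met-low arrays and 0 of 10 and 0 of 9 on the Met-high arrays, where 1 spot was left out as an outlier. The one *Fgf2* spot above background read 56.4, apart from the other 9 on that array, and no ratio is given for this gene.

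**Figure D3:**
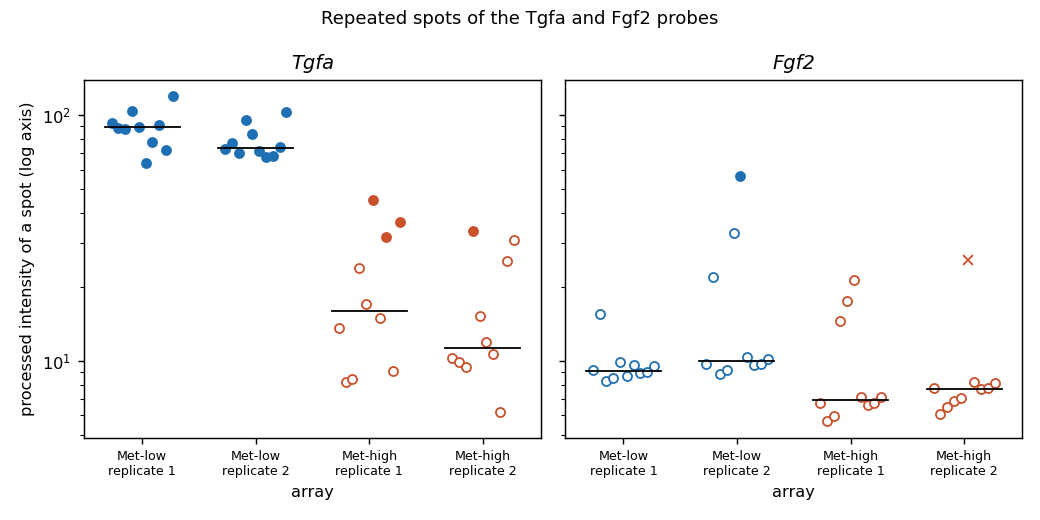
Intensity of every *Tgfa* and *Fgf2* spot on each array (log axis), with filled circles for spots well above background, open circles for the others, a cross for a spot left out as an outlier, and a line at the median of the spots used. The 10 *Tgfa* spots of each Met-low array lie at 63.7 or above and those of the Met-high arrays at 45.1 or below, while the *Fgf2* spots are nearly all open on the 4 arrays.

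*Thbs1* (NM_011580), the inhibitor among the members, gave -2.14 and -2.76 in Met-low and -3.34 and -3.62 in Met-high cells. The intensities were 214 and 197 against 84.8 and 90.5. Its mean was lower in Met-high cells, on the same side as those of *Pdgfa*, *Angpt2* and *Vegfa*, but it was not called. The log2 ratio was -1.03 (standard error 0.26, unadjusted 95% interval -1.68 to -0.38, adjusted p = 0.0840), a 2.04-fold difference between means. Without Met-low replicate 2 the ratio was -1.34 (adjusted p = 0.0456), and with normexp it was -0.60.

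Leaving out each array in turn separated the members further. In the fit over genes, *Pdgfa* was called each time, with log2 ratios between -2.45 and -1.84 and adjusted p-values between 0.00209 and 0.0232. In the fit over probes, 0 member probes were called without Met-low replicate 1, so neither *Pdgfa* probe was. *Tgfa*, compared through its detection in Met-low cells alone, had calculated ratios between -2.54 and -1.85. *Angpt2* lost its call without one array and *Vegfa* without any of the 4, as given above. *Pdgfb*, *Vegfb* and *Vegfc* were called in none of these fits, and *Vegfb* stayed between 0.35 and 0.52. In each of these fits the population with a lone array was taken to have the spread of the other population.

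**Figure D4:**
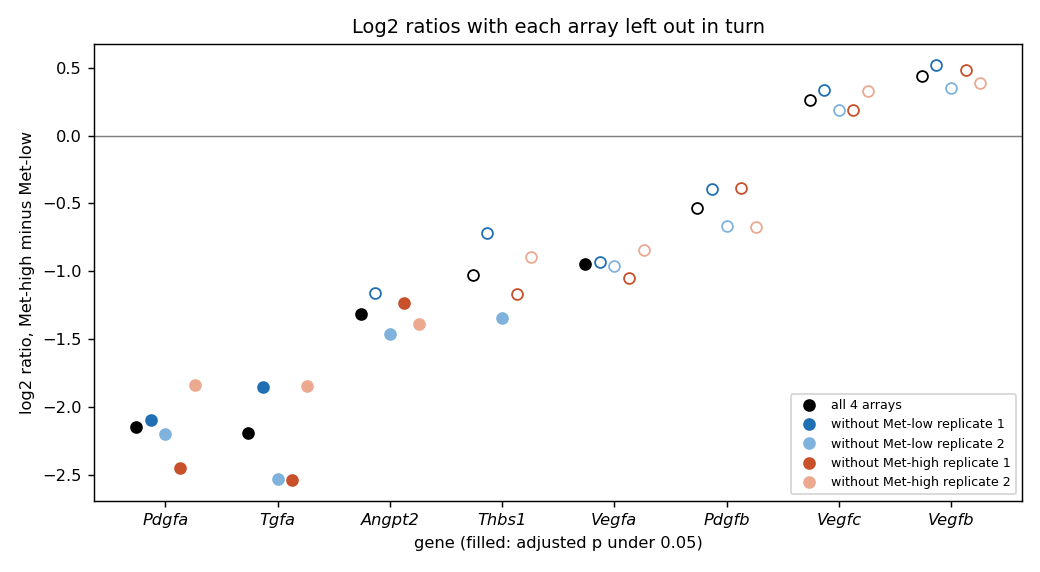
Log2 ratio, Met-high minus Met-low, of the 8 members compared, with all 4 arrays (black) and after removal of single arrays (blue without a Met-low array, orange without a Met-high array), filled where the adjusted p was under 0.05. With single arrays removed, *Pdgfa* lies between -2.45 and -1.84. *Tgfa* lies between -2.54 and -1.85, calculated ratios of a gene well above background on neither Met-high array. *Vegfa* is filled with all 4 arrays alone, and no ratio changes side of the line at 0.

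Other genes of the same signaling routes were taken from lists by role. Beside their counts at an unadjusted p under 0.05 from limma stand 1418 lower and 1711 higher among all 11948 genes compared. Of 16 related ligands, 10 were detected on no array, among them *Pdgfc*, *Pdgfd* and *Vegfd*. The 4 that were compared had a median log2 ratio of -0.52, and 0 of them were called by limma (2 lower at an unadjusted p under 0.05). *Fgf1*, the other broad FGF ligand, had a log2 ratio of -0.85 (adjusted p = 0.190). *Hbegf*, which shares the EGF receptor with *Tgfa*, had -0.19 (adjusted p = 0.501), and *Pgf*, which shares VEGFR1 with *Vegfb*, had 0.32 (adjusted p = 0.471). *Angptl4*, well above background on neither Met-high array, was not called (adjusted p = 0.0801). Its Met-low mean was 2.28-fold above the dimmest signals detected on those arrays.

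Among 19 receptors and co-receptors, 10 were compared, 1 was called lower in Met-high cells and the median log2 ratio was 0.00. At an unadjusted p under 0.05 there were 1 lower and 2 higher, the latter being *Fgfr2*, an FGF receptor (log2 ratio 0.77, adjusted p = 0.0673), and *Erbb2*, a partner of the EGF receptor (0.60, adjusted p = 0.0968). The one was *Nrp1*, neuropilin 1, a co-receptor of VEGF-A, which gave -1.67 and -2.21 in Met-low and -3.50 and -3.64 in Met-high cells. It fell by 1.63 on the log2 scale (standard error 0.23, adjusted p = 0.0240). *Nrp2*, the co-receptor of VEGF-C, had a log2 ratio of -0.01 (95% interval -0.68 to 0.66, adjusted p = 0.985). Whether the ratios of the neuropilins differ was not tested. *Kdr*, the VEGFR2 gene, was detected on all 4 arrays, at 2.65 and 2.43 in Met-low and 3.07 and 2.73 in Met-high cells (log2 ratio 0.36, adjusted p = 0.301). *Cd47*, a receptor of thrombospondin 1, had a log2 ratio of -0.18, and *Gpc1*, a heparan sulfate proteoglycan that binds FGF2, of -0.28, and neither was called. The genes of the PDGF receptors, *Pdgfra* and *Pdgfrb*, of Tie2, *Tek*, and of the EGF receptor, *Egfr*, were well above background on no array.

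Of 16 enzymes that process or release these factors, 10 were compared, 0 were called lower by limma (2 at an unadjusted p under 0.05) and 1 was called higher. *Hpse*, heparanase, which cuts heparan sulfate and frees growth factors bound to it, gave 0.29 and 0.39 in Met-low and 1.50 and 1.59 in Met-high cells, with no overlap. It rose by 1.20 on the log2 scale (standard error 0.16, adjusted p = 0.0201). The call was lost without Met-low replicate 1 (adjusted p = 0.0736) or Met-high replicate 2 (adjusted p = 0.0543). *Furin*, the protease that matures PDGF-A and VEGF-C, had a log2 ratio of 0.42 (adjusted p = 0.278), and *Adam17*, the sheddase of TGFα, had -0.13 (adjusted p = 0.620). *Mmp2*, a gelatinase, had -0.95 (adjusted p = 0.0532).

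Of 15 inhibitors of angiogenesis other than *Thbs1*, 8 were compared and 1 was called, on the Met-low side, and the list had a median of -0.01. At an unadjusted p under 0.05 there were 1 lower and 2 higher, the latter being the chemokine *Cxcl10* (log2 ratio 0.99, adjusted p = 0.0703) and the semaphorin *Sema3f* (0.98, adjusted p = 0.0716). *Timp3*, a matrix-bound inhibitor of metalloproteinases that also blocks VEGFR2, gave 0.62 and 0.53 in Met-low and -2.16 and -2.13 in Met-high cells. It fell by 2.72 on the log2 scale (standard error 0.15, adjusted p = 0.00486), further than the calculated ratio of any member, and was called with each array left out. Its close relative *Timp2* had a log2 ratio of 0.20 (adjusted p = 0.474). *Sparc*, which binds VEGF and PDGF-B, had -0.36 (adjusted p = 0.429), *Vash1* had -0.10 (adjusted p = 0.712) and *Serpinf1* had 0.09 (adjusted p = 0.772).

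Of 14 other secreted angiogenic factors, 6 were compared and 1 was called, on the Met-high side. *Lgals3*, galectin 3, gave 2.16 and 3.03 in Met-low and 4.75 and 4.77 in Met-high cells. It rose by 2.16 on the log2 scale (standard error 0.31, adjusted p = 0.0242), about as far as *Pdgfa* fell, and was called with each array left out. The matricellular factors *Ccn1* and *Ccn2* had log2 ratios of 0.33 (adjusted p = 0.272) and -0.54 (adjusted p = 0.151). The called genes around these ligands thus lay on both sides, with *Nrp1* and *Timp3* higher in Met-low and *Hpse* and *Lgals3* higher in Met-high cells.

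Low oxygen raises *Vegfa* in many cells, and genes of that response were read beside it. Of 14 hypoxia targets that were compared, 0 were called, 5 had a lower and 9 a higher mean in Met-high cells, and the median log2 ratio was 0.18. Over all 11948 genes, 4836 had a lower and 7112 a higher mean, and the median was 0.10. *Ldha*, a lactate dehydrogenase subunit, had a log2 ratio of 0.26 (adjusted p = 0.336), *Pgk1*, a glycolytic kinase, had 0.19 (adjusted p = 0.514) and *Ndrg1* had -0.57 (adjusted p = 0.137). At an unadjusted p under 0.05 there were 2 lower and 2 higher among the 14, beside 1418 lower and 1711 higher among all 11948 genes. Of 8 oxygen sensing genes, 1 had a lower and 7 a higher mean in Met-high cells. At an unadjusted p under 0.05 there were 1 lower and 2 higher, the latter being the prolyl hydroxylase *Egln2* (log2 ratio 0.73, adjusted p = 0.0663) and *Vhl*, which marks hydroxylated HIF for degradation (0.47, adjusted p = 0.138). *Hif1a* had 0.10 (adjusted p = 0.734) and *Epas1* had 0.17 (adjusted p = 0.563). *Egln3*, a prolyl hydroxylase that is itself induced by hypoxia, was the one called. It too was well above background on neither Met-high array, with a Met-low mean 1.86-fold above the dimmest signals detected there. Its calculated ratio of -1.52 (adjusted p = 0.0454) was -0.34 with normexp (adjusted p = 0.202). The *Egln3* call was held in 5 of 11 settings of background, scaling, filter, probes, fit and arrays. Among others it was lost with quantile normalization (adjusted p = 0.0800), with a mean-variance trend (0.0738) and without Met-low replicate 2 (0.0893) or Met-high replicate 1 (0.0610), and there was no value for it without Met-high replicate 2.

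**Figure D5:**
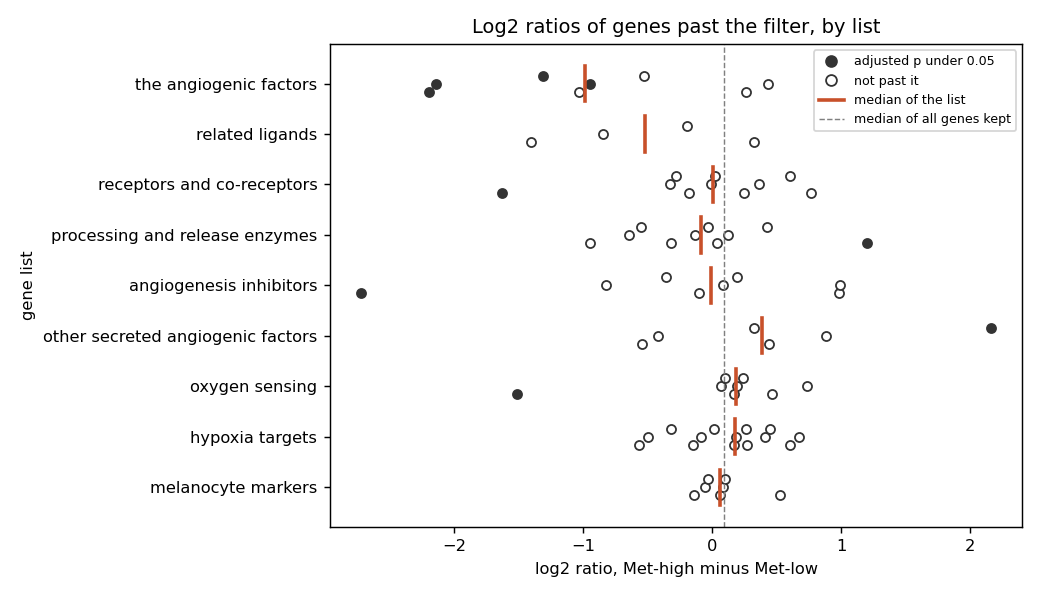
Log2 ratio, Met-high minus Met-low, of every compared gene of the 9 lists shown, filled where the adjusted p was under 0.05, with an orange line at the median of the list and a dashed line at the median of all genes, 0.10. The angiogenic factors have a median of -0.99, the other 8 lists shown have medians between -0.52 and 0.38, and the points of the hypoxia targets and melanocyte markers are all open.

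Markers of other cell types that could sit in a melanoma culture were in part undetected, but *Kdr*, *Cd3e* and *Col1a2* were well above background on all 4 arrays. Of 7 endothelial markers, 5 were detected on no array, including *Cdh5*, and those compared were *Kdr* and *Pecam1*, with log2 ratios of 0.36 and 0.07 and neither called. The summed linear signal of the 7 was 6.34 and 5.50 times the 75th percentile in Met-low and 8.46 and 6.75 times in Met-high samples. Nearly all of this sum came from *Kdr*, since *Pecam1* had mean signals of only -4.41 in Met-low and -4.34 in Met-high samples. Of 6 fibroblast and mural markers, *Dcn*, *Pdgfrb* and *Rgs5* were on no array. The summed signal was 0.648 and 0.710 in Met-low and 0.356 and 0.345 in Met-high samples, most of it from *Col1a2*. Within that list *Col1a2*, a collagen gene, was called lower in Met-high cells, with mean signals of -0.85 in Met-low and -1.95 in Met-high samples (adjusted p = 0.0310), a call that was lost with any one of the 4 arrays removed. This is the side of the called members, and its part in their ratios was not tested. Of 4 immune markers with a probe, 2 were detected, and the one compared, *Cd3e*, gave 0.75 and 0.32 in Met-low and 1.33 and 0.48 in Met-high samples and was not called (adjusted p = 0.515).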

How the data were processed

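Met-low and Met-high B16-F10 cells were measured with 2 arrays each. Per the labels and methods, Cy3-labeled cRNA was hybridized to Agilent 1-color arrays, and the authors read the images with Feature Extraction (10.7.3.1 in the submitters' processing notes, 11.0.1.1 in the file headers). The deposited scanner output gives a background-corrected intensity for each spot. The authors also deposited normalized log2 values, which equaled the log2 intensity relative to the array percentile, centered per probe, within 0.01 for at least 93.5% of 39429 probes; they were used as an alternative.

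From the intensities (floor 0.01, reached by 0 spots), log2 values were taken relative to the 75th percentile of the non-control spots of each array. Between 207 and 232 spots per array marked as uneven or outliers were left out, 0 were saturated, and spots of a probe were averaged. A probe counted as detected on an array where most of its spots were well above background. The accessions of 27427 probes led to a symbol in the mouse RefSeq table (GRCm38.p6), used for names only, since the array design was built on mm9, and 12002 probes stayed unnamed. The fit used limma 3.58.1 (lmFit, eBayes) in R 4.3.3, with Benjamini-Hochberg adjustment over 11948 genes, or over 19776 probes in a separate fit. Intervals are unadjusted 95% intervals, p-values are two-sided, and means have n = 2. The number of arrays limits the precision. The test was checked on simulated data with independent noise on each array and changes larger than the ratios of *Angpt2* and *Vegfa*. That check therefore does not cover smaller changes or differences shared by a replicate number.

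The alternatives were normexp (offset 50), quantile normalization, a percentile over detected probes, no filter or a stricter filter, no removal of marked spots, averaging a gene's probes, the authors' values, each array left out, a mean-variance trend, the replicate number as a block, a 2-fold requirement and the methods' t-test. The genes named are the members, *Met*, the called genes of each list and up to 4 of its brightest others, and those sharing a receptor or ligand with a member. The members and lists were chosen with earlier results of these data known. Tables and figures used Python 3.11.15, numpy 2.4.6, pandas 2.3.3 and matplotlib 3.10.9.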

Additional observations from a re-analysis of the deposited data

How the results depend on the processing

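Members called lower in Met-high cells numbered 4, and 2 to 4 with each array left out. Without the filter on dim probes 0 members were called lower (7 lower and 0 higher over all genes). With detection required on all 4 arrays 3 members were called lower (400 lower and 220 higher over all genes). With Student's t-test 0 members were called lower after Benjamini-Hochberg adjustment (0 lower and 1 higher over all genes), and 4 lower and 1 higher at its unadjusted threshold (945 lower and 1266 higher over all genes). Tested probe by probe, 3 member probes were called lower, 0 to 2 with each array left out, 0 without the filter, and 0 after adjustment or 5 lower and 1 higher before it with the t-test. Over all genes, 455 were called lower and 232 higher, 389 to 536 lower and 110 to 401 higher with each array left out, and 395 higher with a mean-variance trend. With the percentile over detected probes these were 593 and 139. The median log2 ratio of all genes was 0.10, -0.05 with that percentile and -0.09 without the filter. The log2 ratios of the 8 members compared kept their sign in these settings.

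Replicate numbers were shared by the populations, but the labels do not say that a number marks a shared sort. With the replicate number as a block, 5 members and 7 member probes were called lower, the added gene being *Thbs1* (adjusted p = 0.0133), and 1578 genes were called lower and 1974 higher. The block also brought in *Met* (adjusted p = 0.04996) and the second *Vegfa* probe (adjusted p = 0.0475). The differences between replicates 1 and 2 correlated between populations (r = 0.54 across 11948 genes, which are not independent), with only 2 pairs. A slide or scan block could not be fitted. With normexp, the ratios of *Pdgfb*, *Thbs1* and *Tgfa* shrank most among the members compared. The offset added in this setting shrinks ratios of dim probes by construction, so the shrinkage does not show what limits these genes. The cause of the changes between settings was not tested.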
